A study of Mus musculus with 2 samples.

Results

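The Janus kinases, their STAT transcription factors and the SOCS feedback inhibitors were examined in squamous organoids from mouse forestomach, a rodent stomach compartment with a squamous lining like that of the esophagus. The set held 10 genes, namely Jak1, Jak2, Il6st, Stat3, Stat5a, Stat5b, Stat6, Socs1, Socs2 and Socs3, out of 29456 genes with a probe set of their own. They were chosen by gene symbol. Each of the 10 had exactly 1 probe set, and none shared a probe set with another gene.

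There were 2 groups of 1 library, each read on 1 Affymetrix Mouse Gene 2.0 ST array. Mice of the genotype Krt5CreER/+; Sox2Δ/Δ; ROSA26tdTomato/+ gave the SOX2 KO organoids. In these mice the Krt5 promoter drives a tamoxifen-inducible Cre in basal squamous cells. The WT control organoids came from wild-type mice, and in the methods of the study control animals were littermates that carried no Cre. Both cultures were grown in Matrigel in keratinocyte serum-free medium with pituitary extract, EGF, calcium and the kinase inhibitor Y-27632. The sources used here give neither the age of the mice nor how many stood behind a culture. Genotype cannot be told apart from mouse, culture or array. With 1 library a group the differences have no replicate error and no p-value.

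JAK-STAT signaling carries the message of cytokines from the cell surface to the nucleus. A cytokine brings its receptor chains together, the Janus kinases bound to them phosphorylate each other and the receptor, and STAT proteins dock there, are phosphorylated and enter the nucleus. SOCS proteins, whose genes are themselves STAT targets, then shut the receptor complex down. In stratified epithelia STAT3 is known for its part in keratinocyte migration, proliferation and wound repair, and STAT6 carries the signal of interleukin 4 and interleukin 13, cytokines of eosinophilic esophagitis. These steps act through phosphorylation, which an array of transcripts does not measure.

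Values are log2 probe set signals, and differences are SOX2 KO minus WT control on that scale. The floor was 3.3, the median signal of all genes, and 15983 genes reached it in 1 library or both. The 95th percentile of 1127 olfactory receptor genes, taken here as unexpressed, was 3.84 and stood in for background. Levels of different genes were not ranked, because each probe set has its own brightness, and sums over marker genes serve only to compare the libraries. Sox2 itself was 2.53 in the SOX2 KO library and 5.74 in the WT control library. Basal squamous markers were present in both libraries. Krt5 was 8.71 in SOX2 KO and 8.86 in WT control, and Trp63 was 6.31 in SOX2 KO and 6.44 in WT control. These were the 2 lower of 6 basal markers. The other 4 were higher, Krt15 by the most (8.73 in SOX2 KO and 7.5 in WT control).

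Jak2 was the member that stood out. All 10 members passed the floor, with 1 past 2-fold upward in SOX2 KO and 0 past 2-fold downward. The background was 2.01% of all genes above the floor for 2-fold or more upward and 0.795% downward, and 1 of 10 is too few to set the group apart from it. To any extent 6 members were higher (Jak1, which turned lower after quantile or loess scaling, among them) and 4 lower, with a median difference of 0.095. Over all genes above the floor the median was 0.00, with 47.8% higher and 49.4% lower. In 5 members both libraries lay above the background stand-in (Jak1, Jak2, Il6st, Stat3 and Stat6), in 2 only the SOX2 KO library did (Stat5a and Socs3), and in 3 neither did (Stat5b, Socs1 and Socs2).

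**Figure D1:**
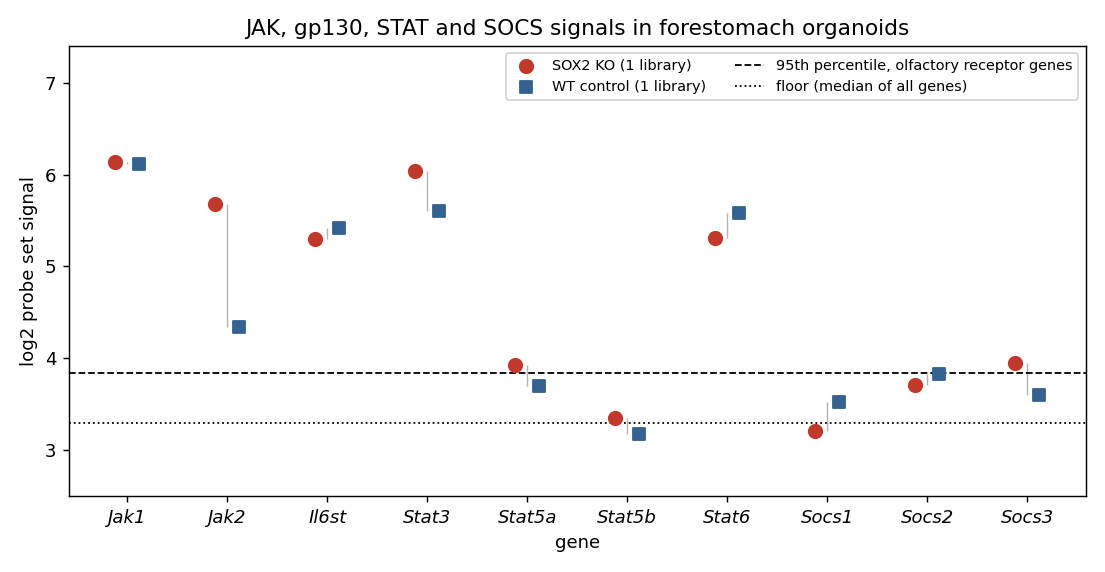
Log2 probe set signal of each member in the SOX2 KO library (red circles) and the WT control library (blue squares), 1 library each, with the background stand-in of 3.84 dashed and the floor of 3.3 dotted. Jak2 shows the widest gap, at 5.68 in SOX2 KO and 4.34 in WT control, and the 3 Socs genes, Stat5a and Stat5b lie close to or below the dashed line.

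The sequences before the start sites of Jak2 and Stat3 are shown because Jak2 had the largest difference and Stat3 the next largest in the deposited values, and a short stretch of Socs3 because it holds the STAT motif, which no other member's window in the table had. They are RefSeq sequences of build GRCm38.p6, the mm10 assembly, read from 5′ to 3′ on the strand of the gene. Jak2 covers chr19:29251553-29251802 on the plus strand, the 250 bases before its start site. Stat3 covers chr11:100939595-100939790 on the minus strand, the 196 bases of its window that lie outside the annotated gene. Socs3 covers chr11:117969502-117969530 on the minus strand, which lies inside the annotated span of the gene (117966079 to 117970336), upstream of the listed start site. Capitals mark the STAT motif.
Jak2: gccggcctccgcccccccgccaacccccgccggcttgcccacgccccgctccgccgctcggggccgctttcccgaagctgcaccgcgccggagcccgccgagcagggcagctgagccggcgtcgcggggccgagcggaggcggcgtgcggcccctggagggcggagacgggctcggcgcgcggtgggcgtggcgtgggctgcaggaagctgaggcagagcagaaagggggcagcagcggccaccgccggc
Stat3: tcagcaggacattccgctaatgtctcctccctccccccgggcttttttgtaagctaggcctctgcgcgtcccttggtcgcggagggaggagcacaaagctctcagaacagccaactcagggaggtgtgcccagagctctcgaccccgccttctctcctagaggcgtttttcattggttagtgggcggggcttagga
Socs3: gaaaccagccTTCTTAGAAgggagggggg

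The windows were searched for the letters TTCNNNGAA, the consensus of STAT dimers, which reads the same on both strands, and for ACAAT, a core of SOX motifs, on both strands. The motifs can overlap at their ends, but no window of a member held both. Of the 10 members 9 had 1 or more windows in the table, 11 windows in all, and Socs2 had none. Only the Socs3 window held TTCNNNGAA, starting 154 bases before the start site. Among all 32851 windows of 250 bases, 7.0% held this motif, and 1 of 11 is too few to set the members apart from that. ACAAT stood in the Jak1 window, in 1 of the Stat5b windows and in none of the others, against 27.7% of all windows. Jak2 had neither motif in its window and a G and C content of 80.8%, which 1.0% of all windows reached. A match is a description of letters and not a binding site, and its absence says only that these letters are not in this window.

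Jak2, which phosphorylates STAT proteins downstream of gp130, interferon gamma, growth hormone and erythropoietin receptors, was 5.68 in the SOX2 KO library and 4.34 in the WT control library. The difference of 1.34 corresponds to 2.53-fold higher array signal. Both values lay above the background stand-in, and 0.83% of genes above the floor had a difference at least as large in this direction. Of all genes above the floor 6.45% were higher by 1.5-fold or more and 0.501% by 3-fold or more, and Jak2 belonged to the first class only. Its probe set covers chr19:29251828-29313080 on the plus strand (mm10), nearly the whole annotated gene.

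Jak1, the partner of Jak2 at gp130 and a kinase shared by many cytokine receptors, was level, with 6.14 in the SOX2 KO library and 6.12 in the WT control library (difference 0.02, -0.11 after quantile scaling and -0.011 after loess scaling). Tyk2, another kinase of the family, lay below the background stand-in in both libraries, at 3.51 in SOX2 KO and 3.57 in WT control.

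**Figure D2:**
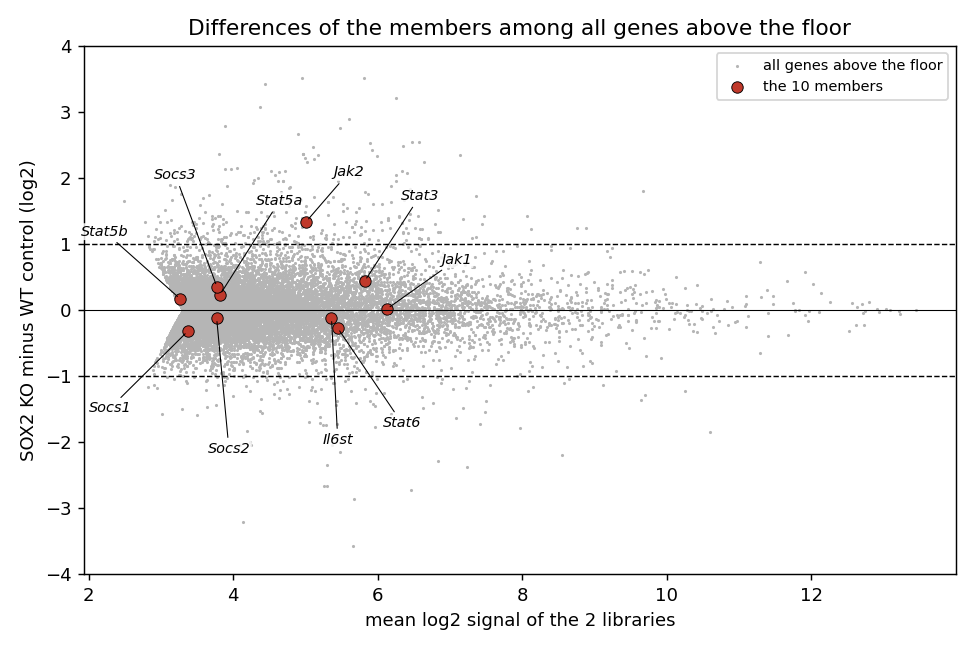
Difference in log2 signal (SOX2 KO minus WT control, vertical) against mean log2 signal of the 2 libraries (horizontal) for 15983 genes above the floor (grey) and the 10 members (red). Jak2, at 1.34, is the only member beyond the dashed 2-fold lines, and the other members lie between -0.32 and 0.44.

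The genes around Jak2 are described for their position only. Jak2 was the member with the largest difference, so almost any other genes would differ less than it. Within 300 kb 16 other genes had a probe set of their own, of which 0 were past 2-fold. The background was 2.01% higher and 0.795% lower, and nothing is read from this count. Their differences ran from -0.59 to 0.47 with a median of -0.02, and 8 of them were below the background stand-in in both libraries. Upstream, Rcl1, which acts in ribosomal RNA processing, was 3.34 in SOX2 KO and 3.93 in WT control. Downstream lie Cd274 and Pdcd1lg2, which encode the ligands of the immune checkpoint receptor PD-1 and are known targets of interferon signaling. Cd274 was 3.06 in SOX2 KO and 3.10 in WT control, and Pdcd1lg2 was 2.95 in SOX2 KO and 2.82 in WT control, all below the background stand-in. These neighbours were named after their values were seen.

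**Figure D3:**
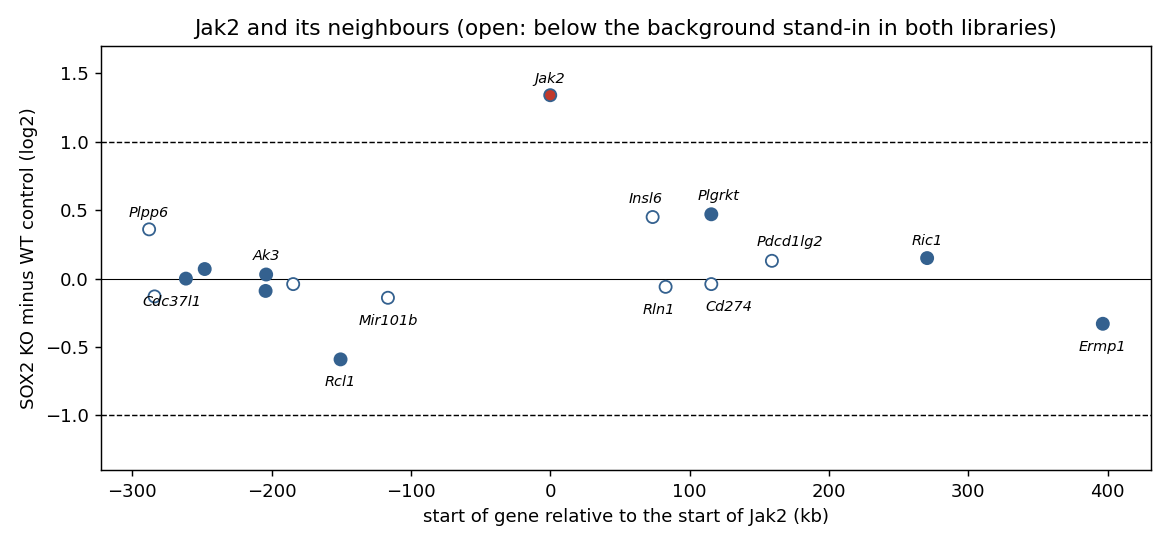
Difference in log2 signal (SOX2 KO minus WT control, vertical) of Jak2 (red) and the 16 genes within 300 kb (blue) by the distance of their start from the start of Jak2 in kb (horizontal). Open circles are genes below the background stand-in in both libraries. Jak2 alone lies beyond a dashed 2-fold line.

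Genes that mark cells other than squamous epithelium also differed between these libraries. All 5 smooth muscle markers were higher in SOX2 KO, with a summed linear signal of 276.7 in SOX2 KO and 69.6 in WT control. Acta2, the actin of smooth muscle and myofibroblasts, was 7.05 in SOX2 KO and 4.16 in WT control. Of 6 fibroblast markers 3 were higher and 3 lower (summed signal 120.4 in SOX2 KO and 59.0 in WT control). Most of the higher fibroblast sum came from Dcn (linear signal 59.7 in SOX2 KO and 7.1 in WT control). Dcn, a matrix proteoglycan, was 5.90 in SOX2 KO and 2.83 in WT control, Col1a2 was 4.12 in SOX2 KO and 3.48 in WT control, and Col1a1 was 4.34 in SOX2 KO and 4.04 in WT control. Col3a1 (3.31 in SOX2 KO and 3.41 in WT control), Lum and Pdgfra lay below the background stand-in in both libraries. Of 6 leukocyte markers 3 were higher, 2 lower and 1 level (65.4 in SOX2 KO and 50.5 in WT control). Ptprc, the common leukocyte antigen, was below the background stand-in at 3.08 in SOX2 KO and 2.75 in WT control, and Lyz2 was 4.54 in SOX2 KO and 2.80 in WT control. The higher leukocyte sum came from Lyz2 (linear signal 23.3 in SOX2 KO and 7.0 in WT control). The 4 endothelial markers had summed signals of 42.7 in SOX2 KO and 47.8 in WT control, with 3 of them below the background stand-in in both libraries, where a lower level cannot be resolved. Of 5 suprabasal squamous markers 4 were lower and 1 higher (1171.6 in SOX2 KO and 2471.3 in WT control). Of 6 basal markers 4 were higher and 2 lower (1351.2 in SOX2 KO and 1148.2 in WT control). The higher basal sum came from Krt15 (linear signal 424.6 in SOX2 KO and 181.0 in WT control). The log2 differences of the other basal markers ran from -0.15 to 0.08. The part of these marker genes in the Jak2 difference was not tested. In bulk RNA, more cells of a type and more RNA per cell cannot be told apart.

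Il6st encodes gp130, the signaling chain shared by the receptors of the interleukin 6 family. Its signal was 5.30 in the SOX2 KO library and 5.42 in the WT control library, a difference of -0.12, and 36.7% of genes above the floor were at least that far lower. The chains that pair with gp130 went both ways, with 2 higher and 3 lower among the 5 of 6 receptors above the floor. Their median was -0.19, and it was -0.055 with no floor and -0.042 as a mean. Osmr, the oncostatin M receptor, was 5.63 in SOX2 KO and 5.14 in WT control, the largest difference of the group (0.49). Il11ra1 was 5.15 in SOX2 KO and 5.34 in WT control, and Il6ra was 4.03 in SOX2 KO and 3.95 in WT control. Lifr, the receptor of leukemia inhibitory factor, did not pass the floor (3.22 in SOX2 KO and 3.14 in WT control).

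Of the 9 ligands of the gp130 family with a probe set of their own, 5 passed the floor and 0 of them were past 2-fold either way. The background was 2.01% higher and 0.795% lower, and nothing is read from so small a count. Il6 (1.95 in SOX2 KO and 1.98 in WT control), Il11 (2.84 in both) and Osm (2.84 in SOX2 KO and 2.76 in WT control) were below the floor. Ctf1, which encodes cardiotrophin 1, was 5.21 in SOX2 KO and 5.88 in WT control, the lowest difference of the list at -0.67. These ligands were named after their values were seen.

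Among the transcription factors, Stat3 had the largest difference in the deposited values. Its signal was 6.04 in the SOX2 KO library and 5.60 in the WT control library, a difference of 0.44 or 1.36-fold, and 10.8% of genes above the floor were at least as far higher. After quantile scaling of the 2 arrays, which moved the median of all genes by -0.04, the Stat3 difference was 0.30 and that of Stat6 -0.36, so the order of these 2 genes depends on the scaling. The study had named Stat3 among the genes bound by SOX2 in CUT&RUN of forestomach organoids and increased in these same arrays. The direction is therefore not independent of that naming, and SOX2 binding was not examined here.

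Stat5a and Stat5b, close paralogs that act below the growth hormone, prolactin and common beta chain receptors, were both near background. Stat5a was 3.93 in SOX2 KO and 3.70 in WT control (difference 0.23), and Stat5b was 3.35 in SOX2 KO and 3.18 in WT control (difference 0.17). Whether their probes tell these paralogs apart was not checked. They lie side by side with Stat3 on chromosome 11, Stat5b at 100780731 to 100850724 on the minus strand, Stat5a at 100859351 to 100885169 on the plus strand and Stat3 at 100885098 to 100939540 on the minus strand (mm10). The probe set spans of Stat5a and Stat3 overlap by 72 bases on opposite strands, and whether a probe lies there is not given in the sources used here. All 3 genes of the cluster were higher in SOX2 KO. The differences of Stat5a and Stat5b were smaller than the SD of the differences of olfactory receptor genes, 0.26. Of the 27 genes within 300 kb of Stat3, these Stat5 genes included, 0 were 2-fold higher and 0 were 2-fold lower, with differences from -0.34 to 0.44. The background was 2.01% higher and 0.795% lower, and nothing is read from this count.

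Stat6 was the only one of the 4 Stat members lower in SOX2 KO, at 5.31 in SOX2 KO and 5.58 in WT control (difference -0.27, 1.21-fold lower). It lies at chr10:127642986-127660987 on the plus strand, and 20.4% of genes above the floor were at least that far lower. Il4ra, the receptor chain common to interleukin 4 and interleukin 13, was 4.05 in SOX2 KO and 4.10 in WT control. Il13ra1, which pairs with it in epithelia, was 6.29 in SOX2 KO and 5.87 in WT control, a difference of 0.42. The interleukin genes Il4 and Il13 lay below the background stand-in in both libraries (Il4 at 2.54 in SOX2 KO and 2.44 in WT control, Il13 at 3.34 in SOX2 KO and 3.15 in WT control).

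Outside the members, Stat2, a factor of type I interferon signaling, was below the background stand-in, at 3.23 in SOX2 KO and 3.37 in WT control.

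The feedback inhibitors lay near background and differed in both directions. Socs3, which binds gp130 and is induced by STAT3, was 3.95 in SOX2 KO and 3.60 in WT control (difference 0.35). Of genes above the floor 15.6% were at least as far higher. Socs1, which inhibits Janus kinases downstream of interferon receptors, was 3.21 in SOX2 KO and 3.53 in WT control (difference -0.32). Socs2, the inhibitor of growth hormone receptor signaling and a STAT5 target, was 3.71 in SOX2 KO and 3.83 in WT control (difference -0.12). Cish, the related inhibitor that STAT5 induces, was below the floor at 2.46 in SOX2 KO and 2.76 in WT control. At these signals a lower level in either library cannot be resolved, and no fold is given.

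The rest of the core pathway had 0 genes past 2-fold, beside a background of 2.01% higher and 0.795% lower, and nothing is read from this count. The list of other STATs, kinases, SOCS genes, PIAS proteins and phosphatases had 18 genes with a probe set of their own, of which 16 passed the floor. There 10 were higher, 4 lower and 2 level, with a median of 0.06 and a range from -0.31 to 0.45. Pias2, a SUMO ligase that restrains STATs, was highest (5.36 in SOX2 KO and 4.91 in WT control), and Ptpn2, a phosphatase that acts on Janus kinases and STATs, was lowest (5.19 in SOX2 KO and 5.50 in WT control). These names were chosen after the values were seen.

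Receptors that couple to STAT5 and those of interferons and the interleukin 10 family differed by small amounts. Among STAT5-coupled receptors 8 of 14 passed the floor, 1 of these was higher and 7 were lower, and the median was -0.18. Only 4 of them lay above the background stand-in in both libraries, 1 higher and 3 lower. Among interferon, interleukin 10 family and other JAK-coupled receptors 8 of 12 passed, 6 were higher and 2 lower, and the median was 0.20. In this list 6 lay above the background stand-in in both libraries, 5 higher and 1 lower. Of all genes above the floor 47.8% were higher and 49.4% lower. The interferon gamma receptor chains, which signal through Jak1 and Jak2, were 5.67 in SOX2 KO and 5.48 in WT control for Ifngr1 and 4.67 in SOX2 KO and 4.47 in WT control for Ifngr2. The IL-4 and IL-13 list had 3 of 6 genes above the floor and a median of 0.19, which is the value of Il13 and became 0.05 with no floor. None of these receptors above the floor was past 2-fold, beside a background of 2.01% higher and 0.795% lower, and nothing is read from this count.

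**Figure D4:**
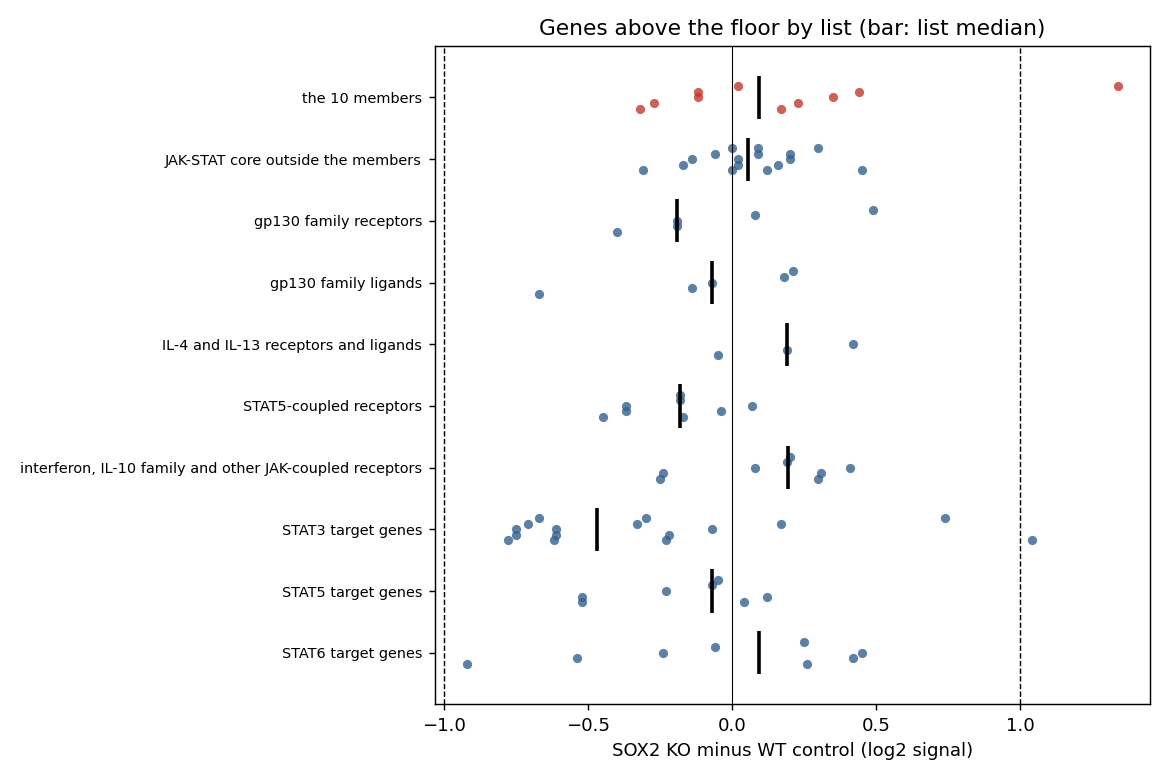
Difference in log2 signal (SOX2 KO minus WT control) of each gene above the floor, with the 10 members in red and the other lists in blue, 1 point per gene. Black bars are list medians and dashed lines mark 2-fold. The STAT3 target genes have the lowest median, at -0.47.

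The listed STAT3 target genes were mostly lower in SOX2 KO, while Stat3 and Jak2 themselves were higher. Socs3, also induced by STAT3, is a member and not in this list. It was higher in SOX2 KO, by 0.35, near background. Of 21 genes in the list 16 passed the floor, with 13 lower and 3 higher and a median of -0.47, against 0.00 over all genes above the floor. Past 2-fold, 1 was higher and 0 were lower, beside 2.01% and 0.795% of all genes. Without a floor 17 of 21 were lower, and of the 11 above the background stand-in in both libraries 9 were lower. The median was -0.23 with no floor, -0.33 with the floor on both arrays and -0.29 as a mean. The list was drawn up with earlier results of these arrays known, including the lower immediate early genes, of which it holds Fos and Junb. Most of its genes are also known targets of pathways other than STAT3.

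By role, the survival and growth genes Pim1, a serine kinase (5.03 in SOX2 KO and 5.81 in WT control), Mcl1, an inhibitor of apoptosis (6.50 in SOX2 KO and 7.12 in WT control), and Myc (8.35 in SOX2 KO and 8.68 in WT control) were lower. The transcription factor genes Junb (4.52 in SOX2 KO and 5.13 in WT control), Cebpb (4.70 in SOX2 KO and 5.31 in WT control) and Fos (3.21 in SOX2 KO and 3.96 in WT control) were lower as well. Of the secreted products of inflamed epithelium, Lcn2, which encodes the iron-scavenging protein lipocalin 2, was 2.06-fold higher (5.0 in SOX2 KO and 3.96 in WT control, where it lay just above the background stand-in), and Saa3 was 3.68 in SOX2 KO and 2.94 in WT control, below the background stand-in in both libraries. S100a9 (3.60 in SOX2 KO and 4.31 in WT control) and Lrg1 (3.34 in SOX2 KO and 4.09 in WT control) were lower. For S100a9, Lrg1 and Fos the SOX2 KO value lay below the background stand-in, so the size of the fall cannot be resolved. Hif1a was 7.80 in SOX2 KO and 7.63 in WT control. Of these genes only Lcn2 was selected by size of difference, and the others were named after their values were seen.

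**Figure D5:**
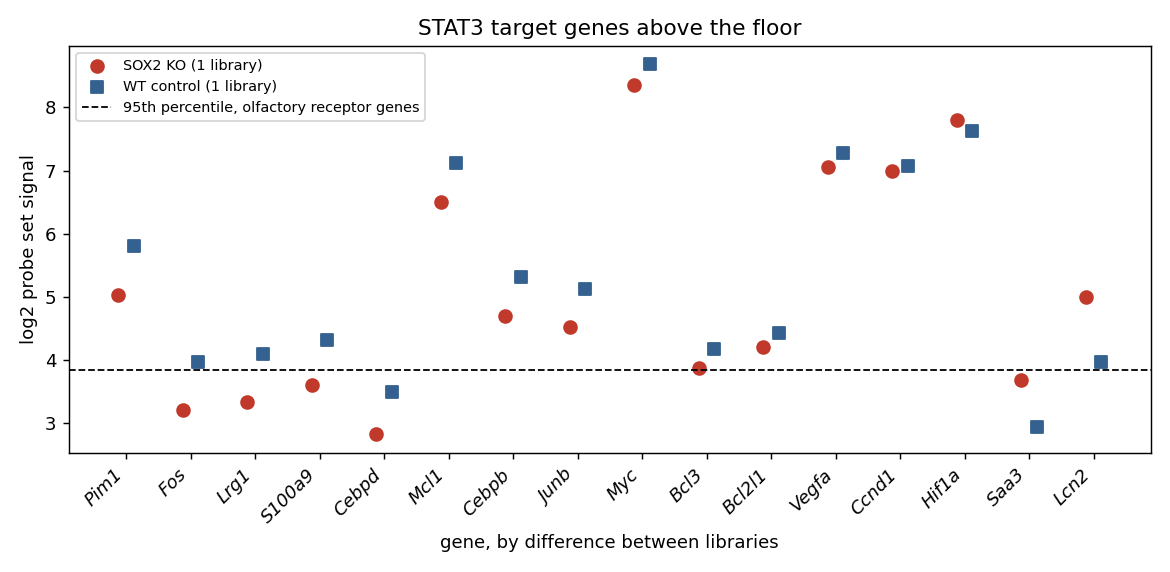
Log2 probe set signal of the 16 STAT3 target genes above the floor in the SOX2 KO library (red circles) and the WT control library (blue squares), 1 library each, ordered by difference. The SOX2 KO signal is the lower of the pair in 13 genes and the higher in Hif1a, Saa3 and Lcn2.

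The target lists of the other factors were shorter, and their genes above the floor went both ways. The STAT5 list had 7 of 10 genes above the floor, 2 higher and 5 lower, with a median of -0.07. Bcl2l1 and Ccnd1, both lower, are also in the STAT3 list. Igf1, an insulin-like growth factor that STAT5 induces in liver, was 3.97 in SOX2 KO and 3.93 in WT control, and Pim2, a kinase related to Pim1, was 3.92 in SOX2 KO and 4.44 in WT control. The STAT6 list had 8 genes above the floor, 4 higher and 4 lower. Arg1, which encodes arginase 1, was the only one of them above the background stand-in in both libraries (8.84 in SOX2 KO and 9.76 in WT control, difference -0.92). These examples were chosen after their values were seen.

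Over all of these lists together, 103 genes outside the members had a probe set of their own and 74 passed the floor. Past 2-fold, 1 gene (Lcn2) was higher and 0 were lower, beside a background of 2.01% and 0.795% of all genes above the floor, and nothing is read from so small a count.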

How the data were processed

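Total RNA from SOX2 KO and WT control forestomach organoids (1 library each) was labelled with the WT Plus assay and hybridized to Mouse Gene 2.0 ST arrays. Normalization was done by the authors with Transcriptome Analysis Console, and the deposited values are log2 signals per probe set. The sources used here give no version and no method of probe summary. The annotation, per the file headers, is that of mm10. The authors' own fold change (a score column, WT control over SOX2 KO) and p-value columns were deposited too and were not used. The series value table was identical (0 values differed). Groups came from the submitters' titles and genotype labels.

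Of 34472 probe sets, 29971 had exactly 1 gene symbol, and the probe set of highest mean signal stood for a gene. No test was made, since each group had 1 library. The number of arrays limits the precision, and no error between replicates can be computed. Calls were counted at 2-fold, a difference of 1 or more.

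The members and gene lists were chosen with earlier results of these data known. Named genes were the members, Sox2, the direct partners of the members, and up to 4 genes of each list past 2-fold and above the background stand-in. The rule also took the 3 genes nearest to Stat3 in their pair of values, which are not reported because it sets levels of different probe sets against each other. Other names are marked as chosen after their values were seen. Jak3 had no probe set of its own. One gene and one gene list are not reported here. Alternatives were median centring, quantile and loess scaling (span 0.3), the series value table, the mean of probe sets, other floors, 1.5-fold and 3-fold thresholds, and list means. Counting was tested on simulated data. Promoter windows came from RefSeq tables of GRCm38.p6, with 10 of 10 members matched by symbol in the gene table. Python 3.11.15, pandas 2.3.3 and statsmodels 0.14.6 were used.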

Additional observations from a re-analysis of the deposited data

How the results depend on the processing

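No paired analysis was possible because there was 1 library per group, which also left no replicate to leave out. With no replicates, a member was called moved past the receptor SD of 0.26, a list median past 0.1 and a count past 1.5 times. Of 184 values under the alternatives 163 stayed within these limits. Many of the 184 could not move, so that share does not measure robustness. The series value table was identical to the values used. Each listed gene had 1 probe set, so the mean of probe sets left the list medians as they were. The Jak2 difference ranged from 1.27 to 1.35, and no member moved past its limit. Jak1 ranged from -0.11 to 0.03, so its sign is open. A floor cannot move a member's difference, and with 1 probe set each neither can the mean of probe sets.

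At 3-fold 0 members, 80 higher and 28 lower genes remained past the threshold, and at 1.5-fold 1031 higher and 708 lower genes, as the threshold itself requires. Several list medians moved, and the cause was not tested. Without a floor the medians came to -0.055 for gp130 family receptors, 0.05 for the IL-4 and IL-13 list, -0.23 for STAT3 targets and -0.055 for STAT6 targets. A floor on both arrays gave -0.33 for STAT3 targets. As means they were -0.042 for gp130 family receptors, -0.294 for STAT3, -0.176 for STAT5 and -0.048 for STAT6 targets. Quantile scaling gave -0.19 for STAT5 targets. Floors at the olfactory receptor level were added after the data were seen. On at least 1 array this floor gave -0.055 for gp130 family receptors and 0.26 for STAT6 targets. On both arrays it gave 167 higher genes, -0.055 for gp130 family receptors, -0.30 for STAT3 and -0.92 for STAT6 targets (1 gene). Signals near 3.84, which include the 3 Socs genes, Stat5a and Stat5b, cannot show a fall.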

Other observations

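Some genes of the pathway share a probe set with another gene and stood in no comparison above. The probe set of Jak3, the kinase of the common gamma chain, which it shares with Insl3, was 3.16 in SOX2 KO and 3.31 in WT control. That of Socs6, shared with Gm41799, was 3.67 in SOX2 KO and 3.58 in WT control. That of Cntf, the gene of ciliary neurotrophic factor, is shared with Zfp91 and was 5.16 in SOX2 KO and 4.88 in WT control. None of these was past 2-fold, and the signal cannot be assigned to either gene of a pair.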
